A study of Mus musculus with 9 samples.

Results

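The E protein genes Tcf3, Tcf12 and Tcf4 were examined for E2A and HEB peaks at their own loci in developing mouse T cells. Every peak in the span of a member gene, or within 50 kb of either end, was taken from the 6 deposited peak lists. This gave 29 of 79216 peaks on the main chromosomes, with 8 at Tcf3, 16 at Tcf12 and 5 at Tcf4. The 3 members are among 21883 protein-coding genes whose windows were measured in the same way.

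E proteins are basic helix-loop-helix transcription factors that pair with each other, or with tissue-restricted partners, and bind the E-box, CANNTG. Tcf3 encodes E2A, whose splice forms are E12 and E47. Tcf12 encodes HEB, which has a long canonical form and a short alternative form, and Tcf4 encodes E2-2, known for its role in plasmacytoid dendritic cells. In thymocytes E2A and HEB act largely as a pair in the steps up to the pre-T cell receptor checkpoint. Id proteins, which lack a DNA-binding region, hold them in check. The question here is whether E2A and HEB had peaks at E protein genes themselves.

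All cells came from Rag2-deficient fetal liver progenitors of BALB/c background, cultured with OP9-DL1 stroma, which presents a Notch ligand. DN3 cells (Thy1.2+ CD4- CD8- CD25+ CD44-) were harvested at day 7. The other cells were DN3 cells given the gamma-delta receptor KN6 by overnight transduction and marked by YFP, in the presence of IL7 and Flt3L. After 3 days on OP9-DL1 they were fixed and sorted as CD24+ CD73- cells, which per the labels kept alpha-beta potential, or CD24+ CD73+ cells, which per the labels had lost it. Neither receptor-free transduced cells nor uncultured thymocytes are among the groups, so receptor, transduction, culture and sorting cannot be told apart. Each population had 1 E2A library, 1 HEB library and 1 input, 9 libraries in all. The antibodies were raised to the last 12 residues of E2A or of HEB.

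The authors joined duplicates before they called peaks, so each group had a single list and no value below has a replicate error or a test. The score of a peak is the authors' -10 log10 of its p-value and ranks peaks within a list only. The share of a list with a lower score, called its percentile here, is therefore given for peaks that are set beside those of another list. Peaks scoring at least 100 are called strong. They made up 40.6%, 8.79% and 7.02% of the E2A lists in DN3, CD73- and CD73+ cells. For HEB the shares were 30.7%, 14.3% and 24.1%. In DN3, CD73- and CD73+ cells the whole lists had 12357, 12434 and 23205 peaks for E2A, with 11619, 9407 and 10194 for HEB. Read depth is unknown, and a window without a called peak does not show that the factor was missing there. Of the CD73+ E2A peaks 16.8% overlapped another list, against 31.8% to 60.0% in the other 5 lists. Peak lists cannot show whether the 2 CD73+ lists carry each other's label, and all CD73+ values below follow the labels. The lists hold no expression values, so cell identity could not be checked against markers.

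No peak of any list lay on a start site of Tcf3 or Tcf12. Start-site windows, 250 bases before to 50 bases after the start, were taken from RefSeq, 1 for Tcf3 and 3 for Tcf12, all on the minus strand of GRCm38.p6, the assembly known as mm10. A Tcf4 window was not used here. Windows of Tcf3 and of the outermost and the internal start of Tcf12 are shown because these are the stretches where a peak over a member promoter would have fallen. The window of Mbd3, a neighbour of Tcf3 and a subunit of the NuRD chromatin complex, is shown because it was the only start-site window of any gene that a peak of the Tcf3 or Tcf12 locus overlapped. Capitals mark each match to CANNTG, whose search reads the same on both strands. The sequences run 5′ to 3′, from chr10:80433586-80433885 (Tcf3), chr9:71896047-71896346 (Tcf12 internal), chr9:72111770-72112069 (Tcf12 outer) and chr10:80399482-80399781 (Mbd3).
Tcf3: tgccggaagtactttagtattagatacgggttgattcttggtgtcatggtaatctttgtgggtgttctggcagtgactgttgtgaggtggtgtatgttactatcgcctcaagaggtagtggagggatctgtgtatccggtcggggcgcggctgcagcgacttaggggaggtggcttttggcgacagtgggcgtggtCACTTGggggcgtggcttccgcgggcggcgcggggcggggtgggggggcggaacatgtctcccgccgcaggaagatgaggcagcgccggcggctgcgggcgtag
Tcf12 outer: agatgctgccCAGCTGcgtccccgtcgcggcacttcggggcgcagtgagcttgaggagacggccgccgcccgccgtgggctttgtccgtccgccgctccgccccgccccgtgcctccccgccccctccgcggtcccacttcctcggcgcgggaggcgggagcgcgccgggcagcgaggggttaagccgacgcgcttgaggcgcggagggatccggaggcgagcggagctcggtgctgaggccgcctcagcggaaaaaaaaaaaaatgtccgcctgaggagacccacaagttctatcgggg
Tcf12 internal: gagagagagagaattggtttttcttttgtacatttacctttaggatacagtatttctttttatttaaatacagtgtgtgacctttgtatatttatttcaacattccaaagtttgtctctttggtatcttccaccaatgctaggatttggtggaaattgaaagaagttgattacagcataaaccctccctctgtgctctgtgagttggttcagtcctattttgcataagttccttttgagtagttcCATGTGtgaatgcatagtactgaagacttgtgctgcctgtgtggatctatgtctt
Mbd3: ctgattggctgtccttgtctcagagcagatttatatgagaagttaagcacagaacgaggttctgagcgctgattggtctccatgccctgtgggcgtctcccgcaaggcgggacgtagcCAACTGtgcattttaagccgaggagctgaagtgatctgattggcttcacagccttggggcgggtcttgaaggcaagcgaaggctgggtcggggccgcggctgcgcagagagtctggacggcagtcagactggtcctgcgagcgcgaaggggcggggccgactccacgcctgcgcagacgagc

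All 4 start-site windows of the members held CANNTG, as did 72.3% of 32851 RefSeq windows of the same length. The Tcf3 window had CACTTG 54 bases upstream of the start, and the outer Tcf12 window had CAGCTG 240 bases upstream. CAGCTG occurred in 16.3% of all windows. The internal Tcf12 window had CATGTG 5 bases upstream, and the remaining Tcf12 window, for a start at position 72111201, held CAAGTG and CACTTG. None of the 4 windows held CAGGTG or its complement CACCTG (20.2% of all windows), CAGATG or its complement CATCTG (17.2%), CACGTG (7.15%) or CATATG (3.91%). A match is a description of the letters and not a binding site.

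**Figure D1:**
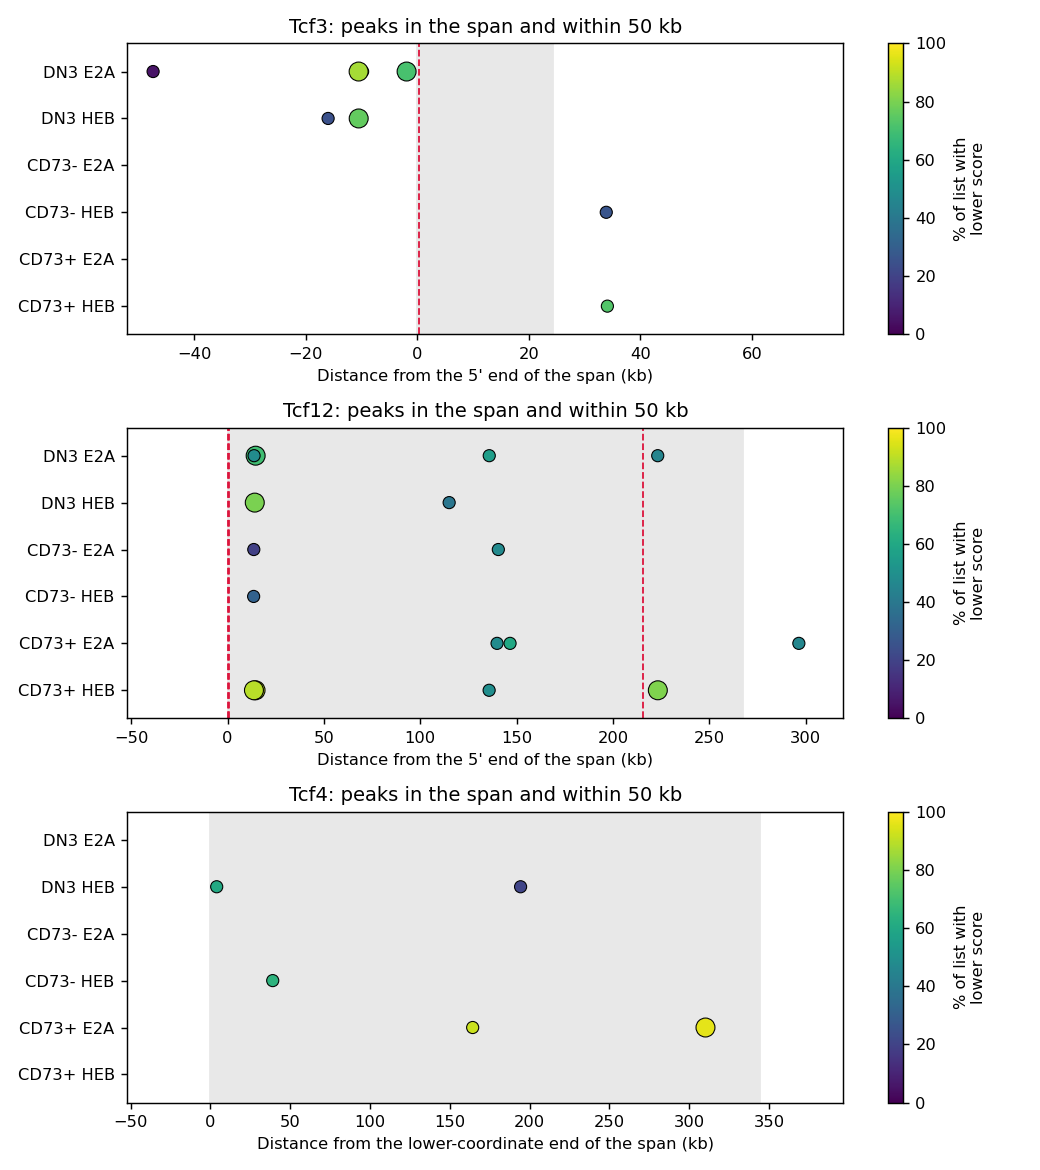
Position of each peak along Tcf3, Tcf12 and Tcf4 in kb (x axis) in each of the 6 peak lists (rows). Grey marks the gene span, dashed lines the RefSeq start sites, colour the share of the list with a lower score, and large points a score of at least 100. At Tcf3 all peaks fall outside the grey span, and at Tcf12 a column of points at about 14.1 kb is filled in every row but CD73+ E2A. Peaks of a list closer together than a point's width overlap in the drawing.

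Tcf12 carried the region with peaks in the most lists. It lay inside the gene at chr9:72096983-72098514, 14.1 kb from the 5′ end of a 268 kb span, and 12.7 kb inside the nearer of the 2 starts at that end. Its highest E2A score was 130 in DN3 cells, at the 69.2 percentile of that list, and 52.2 in CD73- cells, at the 19.3 percentile, with no peak in CD73+ cells. For HEB the highest scores there were 141 (DN3), 56.6 (CD73-) and 242 (CD73+), at the 79.9, 30.9 and 91.3 percentiles. Peaks were thus present in 5 of 6 lists, low within both CD73- lists and high within the CD73+ HEB list. The nearest CD73+ E2A peak was 125 kb away.

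Within this region the peaks formed a pair of neighbouring sites. DN3 E2A had separate peaks at 72097028 to 72097556 (130) and 72097721 to 72098494 (79.3, 48.2 percentile), 164 bp apart. CD73+ HEB also had separate peaks, at 72097066 to 72097616 (242) and 72097970 to 72098372 (206, 89.2 percentile). The midpoints of the outer pair differed by 63.5 bp between the CD73+ HEB and DN3 E2A lists, and those of the inner pair by 49.0 bp, where outer means nearer the 5′ end. A single DN3 HEB peak of 1532 bp covered both sites. The CD73- peaks, for E2A at 72098142 to 72098366 and for HEB at 72098227 to 72098443, overlapped the outer site only and lay at least 525 bp from the inner one. Over the main chromosomes, the 6 lists merged into 58444 regions, of which 350 (0.599%) had this pattern of every list but CD73+ E2A, and 607 (1.04%) had a peak in all 6.

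Beyond that region, 2 further Tcf12 regions recurred, each with a CD73+ HEB peak and a DN3 E2A peak and no other. At chr9:71888415-71888802 the scores were 123 for CD73+ HEB and 75.8 for DN3 E2A, at the 80.6 and 45.5 percentiles. This site lay 223 kb from the 5′ end and 7.37 kb (CD73+ HEB) and 7.29 kb (DN3 E2A) beyond the internal start. At chr9:71975754-71976360, near the middle of the gene, the scores were 62.8 for CD73+ HEB and 91.6 for DN3 E2A, at the 49.0 and 55.5 percentiles. The first was strong in the CD73+ HEB list and the second in none. Regions with this pair of lists alone numbered 497, or 0.850% of all merged regions. In the same stretch, CD73+ E2A had a peak of 61.0 (48.0 percentile) at 71971929 to 71972087 and CD73- E2A one of 57.8 (47.5 percentile) at 71971261 to 71971421, which did not overlap. The other Tcf12 peaks were single, a CD73+ E2A peak of 64.7 (60.1 percentile) at 71965171 to 71965345, a DN3 HEB peak of 63.5 (39.3) at 71996529 to 71997199, and a CD73+ E2A peak of 60.6 (46.2) at 71815299 to 71815463. The last lay 28789 bp beyond the 3′ end and nearer to Cgnl1, a cell junction gene, at 5999 bp. The other 15 of the 16 Tcf12 peaks lay in the gene span. Exon and intron limits were not used here.

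In the Tcf3 window all peaks lay outside the 24.4 kb gene. The 6 DN3 peaks were all upstream, and the peaks of transduced cells lay beyond the 3′ end, nearest to Mbd3. The highest, an E2A peak of 275 at chr10:80444184-80444798, stood at the 86.5 percentile of its list, 10.5 kb before the start site. A DN3 HEB peak of 120, at the 75.8 percentile, overlapped its whole length, with midpoints 13.5 bp apart, and also touched a neighbouring DN3 E2A peak of 56.9 (19.4 percentile). Regions with both DN3 lists and no other numbered 2257, or 3.86% of the merged regions. Nearer the gene, a strong DN3 E2A peak of 137 (70.7 percentile) at 80435599 to 80436173 lay 1.96 kb upstream of the start and overlapped no other list. It was the closest peak to a start site of Tcf3 or Tcf12, and distances to Tcf4 start sites were not measured. A DN3 HEB peak of 57.1 (24.8 percentile), 16012 bp upstream, and a DN3 E2A peak of 51.5 (5.44 percentile), 47.5 kb upstream, also overlapped none, and the second lay nearer to Onecut3, a homeobox factor gene (13291 bp), than to Tcf3.

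In transduced cells Tcf3 had no E2A peak in its window, and the nearest were 185 kb (CD73+) and 219 kb (CD73-) from its start. HEB peaks of 91.0 in CD73+ cells (72.7 percentile) and 56.1 in CD73- cells (26.5 percentile) lay beyond the 3′ end, in a region at chr10:80399732-80400141, where they overlapped by 5 bp only. They stood 201 bp (CD73+) and 481 bp (CD73-) from the start of Mbd3, and 33.6 and 33.5 kb from that of Tcf3. The CD73+ peak covered 50 bases of the Mbd3 window printed above. Of the 8 peaks in the Tcf3 window, 5 were nearer to Tcf3 than to any other protein-coding gene. Plk5, Mex3d and Uqcr11, which also lie in the window, were the nearest gene of none.

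Tcf4 had peaks that did not recur. DN3 HEB peaks scored 82.4 (60.3 percentile) at chr18:69347005-69347829 and 55.4 (20.5) at chr18:69537404-69538114. The only CD73- peak was of HEB, with a score of 67.9 (64.4 percentile), at chr18:69382417-69382587. CD73+ cells had E2A peaks of 96.9 at chr18:69507702-69507787 and 126 at chr18:69653436-69653700, the second within Gm31439, an annotated long noncoding RNA. All 5 lay in the 345 kb span of Tcf4, and none overlapped a peak of another list. The 2 CD73+ E2A peaks stood at the 92.1 and 95.9 percentiles of their list, the highest percentiles of any member peak, at widths of 86 and 265 bp. Of the strong peaks in that list 51.3% were shared with another list, as were 84.3% to 93.8% in the other 5, and the median strong peak was 143 bp wide.

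**Figure D2:**
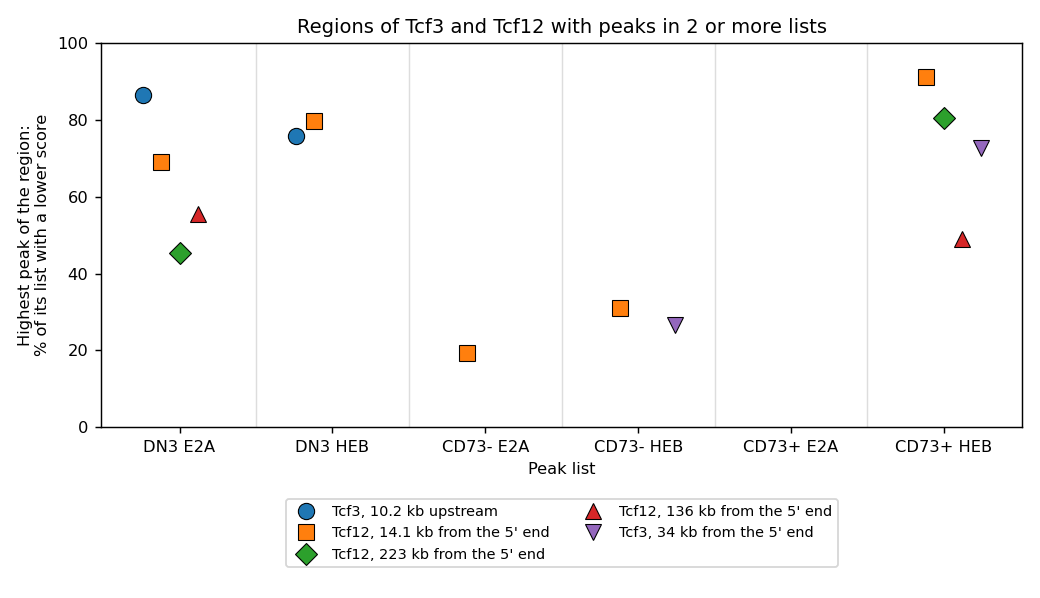
Highest peak of each recurrent region, as the share of its list with a lower score (y axis, percent), in each of the 6 lists (x axis), for the 5 regions with peaks in 2 or more lists. The region of Tcf12 at 14.1 kb has a point in 5 lists and is highest in CD73+ HEB (91.3), and no region has a point in CD73+ E2A.

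The members' peaks made 18 merged regions, of which 13 had a peak in 1 list and 5 in more. Over the main chromosomes 17.7% of regions had a peak in more than 1 list. Both factors had a DN3 peak in 2 member regions, 1 at Tcf3 and 1 at Tcf12, against 9.06% of all regions. Peaks at all 3 stages occurred in 1 member region, that of Tcf12 at 14.1 kb, against 2339 of the 58444 regions. For E2A taken by itself the count was 0, against 1.31% of all regions, and for HEB it was 1, against 2.74%. With strong peaks alone the members had 5 regions, 2 of them in more than 1 list, and within the gene spans 3 regions recurred. The shares of all regions under these rules were not counted. Of member peaks, 6 of 8 in the DN3 E2A list overlapped a peak of another list, against 53.6% of the whole list. The same count was 2 of 6 for DN3 HEB (60.0% of the list), 1 of 2 for CD73- E2A (31.8%) and 2 of 3 for CD73- HEB (45.2%). It was 0 of 5 for CD73+ E2A (16.8%) and 5 of 5 for CD73+ HEB (53.1%). These peaks are not all separate sites. At both Tcf3 and Tcf12 a pair of neighbouring DN3 E2A peaks overlapped a single DN3 HEB peak. A pair of the CD73+ HEB peaks lay in the Tcf12 region at 14.1 kb, and the Tcf3 one overlapped its partner by 5 bp only.

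A peak within 50 kb was common for protein-coding genes, and 88.3% of them had one in at least 1 list. A DN3 E2A peak lay at 2 of 3 members, against 49.6% of all genes, and a strong one at the same 2, Tcf3 and Tcf12, against 27.5%. A DN3 HEB peak lay at 3 of 3 members, against 48.1%, and a strong one at 2, against 22.2%. In CD73- cells E2A had a peak at 1 member, Tcf12, against 41.3%, and HEB at 3, against 37.9%. No CD73- peak of a member was strong, against 7.08% of genes for E2A and 9.08% for HEB. In CD73+ cells E2A had a peak at 2 members, against 53.1%, and a strong one at Tcf4, against 9.10%. HEB had a peak at 2 members, against 41.8%, and strong ones at Tcf12, against 15.8%. With 3 members, counts between 0 and 3 cannot be set apart from these shares.

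Long genes catch more peaks, and Tcf12 and Tcf4 are long. Tcf12 had a peak in all 6 lists, as did 9.52% of all genes. Tcf3 had one in 4 lists, as did 13.4%, and Tcf4 in 3, as did 17.6%. These shares are over genes of every length. Among 2831 genes with a window between 0.5 and 2 times as long as that of Tcf12, 64.3% had a DN3 E2A peak and 55.9% a CD73+ HEB peak. Tcf12 had 4 peaks in each of these lists, against means of 1.71 and 1.06 in those genes. In each, a pair of them lay in the region at 14.1 kb, 164 bp (DN3 E2A) and 353 bp (CD73+ HEB) apart. Its other counts were 2 (DN3 HEB), 2 (CD73- E2A), 1 (CD73- HEB) and 3 (CD73+ E2A). The means for these were 1.46, 1.04, 0.878 and 1.88. Tcf4 had no DN3 E2A, CD73- E2A or CD73+ HEB peak, whereas 65.2%, 63.8% and 59.2% of 1780 genes with windows like its own did. In the Tcf3 window there were 4 DN3 E2A peaks, 2 of them 115 bp apart, against a mean of 1.01 in 20411 genes with windows like its own. Its other counts were 2 (DN3 HEB), 0 (CD73- E2A), 1 (CD73- HEB), 0 (CD73+ E2A) and 1 (CD73+ HEB). The means for these were 0.896, 0.625, 0.585, 0.934 and 0.743. Tcf4 had at most 4.50 peaks per Mb in any list, in DN3 HEB and in CD73+ E2A, where the main chromosomes had 4.27 and 8.53.

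The members were set beside 35 other genes of the E protein pathway, in 4 groups of inhibitors, partners, cofactors and proposed lymphocyte targets. This list was chosen with earlier results of these data known, so its counts are a description and no test. DN3 E2A peaks lay within 50 kb of 25 of the 35 (71.4%, against 49.6% of all genes) and DN3 HEB peaks of 28 (80%, against 48.1%). The CD73- lists reached 15 for E2A (42.9%, against 41.3% of all genes) and 20 for HEB (57.1%, against 37.9%). The CD73+ lists reached 20 for E2A (57.1%, against 53.1%) and 25 for HEB (71.4%, against 41.8%). By the percentile of the highest peak, 11 of the 25 genes with a DN3 E2A peak stood above every member, as did 12 of 28 for DN3 HEB. The same count was 13 of 15 and 16 of 20 in the CD73- lists, and 4 of 20 and 9 of 25 in the CD73+ lists, E2A first in each pair. The mark was the highest member with a peak, and members with one numbered 1 in CD73- E2A and 2 or 3 elsewhere. In CD73- E2A it was 47.5 (Tcf12), below the median of 62.9 over all genes with a peak. In CD73- HEB it was 64.4, against a median of 60.8. In the remaining lists it was 79.9 to 95.9, against medians of 64.4 to 70.3. The share of all genes above the members was not counted, so these counts do not show that pathway genes differ from other genes. The windows hold other genes too, so these peaks need not belong to the gene named.

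Among inhibitors, Id3, which antagonises E proteins after T cell receptor signals, had peaks above the 99 percentile in all 6 lists (99.1 to 99.9). Those peaks lay 30.8 kb or more from Id3 and inside E2f2, a cell cycle factor gene. Id2, the inhibitor typical of innate lymphoid cells, reached 196 in DN3 E2A (80.6 percentile), at a peak in Kidins220. Id1 reached 123 in DN3 HEB (76.5 percentile), and Id4 reached 124 in CD73- HEB (89.5 percentile). Of 9 partner factors, 6 had an E2A peak in DN3 cells, against 49.6% of all genes, and 6 an HEB peak, against 48.1%. In each CD73- list 1 partner, Lyl1, had a peak, against 41.3% of all genes for E2A and 37.9% for HEB. In the CD73+ lists 3 had one of E2A, against 53.1%, and 5 of HEB, against 41.8%. Lyl1, a helix-loop-helix factor of early progenitors, had a DN3 E2A peak of 3100 (99.8 percentile), which lay in Nfix. Bhlhe40, a helix-loop-helix repressor, had a DN3 HEB peak of 414 (95.5 percentile) in its own span. Ascl2 reached 109 in DN3 E2A (62.9 percentile), at a peak 40643 bp away in Tspan32. Myod1 reached 128 in DN3 HEB (77.7 percentile), at a peak nearer to Kcnc1. Tal1 was the only 1 of the 35 genes with no peak. Of 8 cofactors, 2 had an E2A peak in DN3 cells, against 49.6% of all genes, and 5 an HEB peak, against 48.1%. In CD73- cells 4 cofactors had one of E2A, against 41.3%, and 5 of HEB, against 37.9%. In CD73+ cells 6 had one of E2A, against 53.1%, and 4 of HEB, against 41.8%. Cbfa2t3, a corepressor of the ETO family, reached 3100 in DN3 E2A, 767 bp from the gene, and stood at the 98.7 to 99.8 percentiles over the 6 lists. Cbfa2t2 reached 224 in DN3 E2A (83.1 percentile), at a peak 37445 bp away and nearer to E2f1. Ep300, a histone acetyltransferase, reached 142 in CD73+ E2A (97.4 percentile). All 14 proposed targets had a DN3 E2A peak, against 49.6% of all genes, and a DN3 HEB peak, against 48.1%. In CD73- cells 8 targets had a peak of E2A, against 41.3%, and 11 of HEB, against 37.9%. In CD73+ cells 9 had one of E2A, against 53.1%, and 13 of HEB, against 41.8%. The target list names genes already proposed as targets and was chosen with earlier results of these data known. Rag1 and Rag2, neighbours in that list, shared their highest peaks, 552 in DN3 E2A and 127 in DN3 HEB, both nearest Rag1. In the DN3 E2A list Socs3, a brake on cytokine signals, had a peak of 2688, Notch1, a receptor required for T cell fate, 1714, Cdkn1a, a cell cycle inhibitor, 1381 at a peak nearer to Srsf3, and Gfi1, a zinc finger repressor, 1141. For comparison the highest DN3 E2A peak of a member was 275, at Tcf3. The 4 targets just named were the highest of their group, and other targets stood below Tcf3 in this list, down to 75.8 (45.5 percentile).

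**Figure D3:**
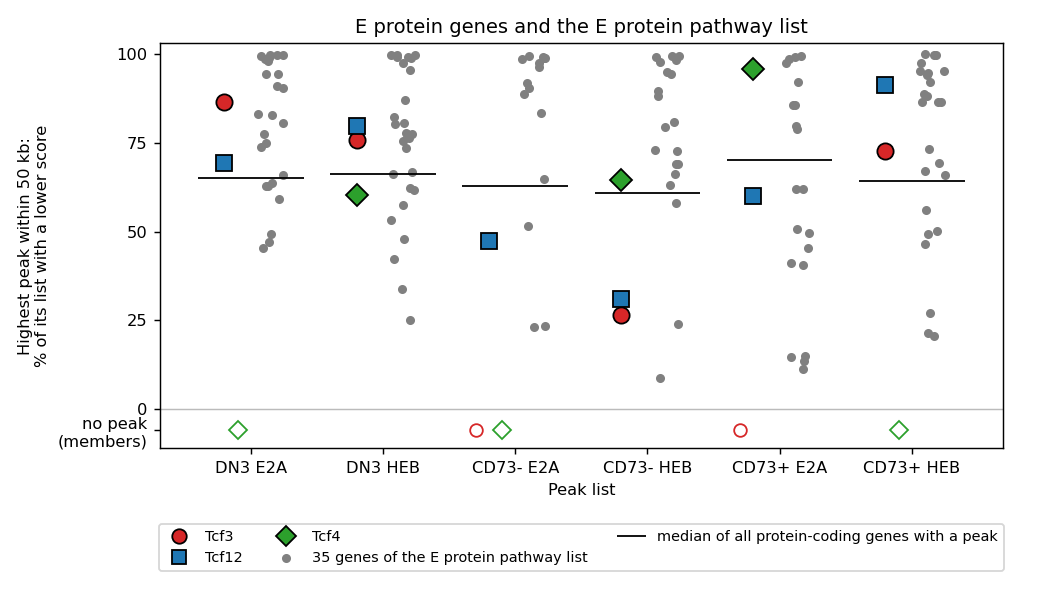
Highest peak within 50 kb, as the share of its list with a lower score (y axis, percent), for Tcf3, Tcf12 and Tcf4 (coloured) and the genes of the E protein pathway list that have a peak (grey), in each of the 6 lists (x axis). Black lines give the median over all protein-coding genes with a peak, and open symbols show members with none. Both members with a peak in CD73+ HEB (72.7 and 91.3) lie above the median there (64.4), and in CD73- HEB Tcf3 and Tcf12 (26.5 and 30.9) lie below it (60.8) and Tcf4 (64.4) above.

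Likeness of pattern was measured as the Euclidean distance between genes in the percentile of the highest peak over the 6 lists, with 0 where there was none. Mbd3 and Uqcr11, 10.0 and 2.72 kb from Tcf3, had the same values as Tcf3, since their windows hold the same peaks. The next was Spcs2, at a distance of 9.29. The genes most like Tcf12 were Ccdc153, Nlrx1 and Pdzd3, which neighbour each other on chromosome 9 and were equally far, at 21.6. Vav1 was most like Tcf4, at 8.29, followed by Defa34 and Defa39, both at 9.30.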

How the data were processed

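The submitters' processing notes name MACS 1.4.2, Bowtie and HOMER, and build mm10. Per the labels, duplicates were joined into 1 file. Each deposited list holds peaks with a score, the authors' -10 log10 of the p-value, at least 50 in these files. Scores were not changed, and the lists give no read depth.

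Only chromosomes 1 to 19, X and Y entered, with 1-based positions, and 684 peaks elsewhere were left out. Lists were matched to groups by cell and antibody names. Gene spans, RefSeq start sites and promoter sequences are of GRCm38.p6. Peaks were assigned to a gene by overlap with its span or 50 kb on either side. Member peaks of all lists were merged where they touched. The percentile of a peak is the share of its list with a lower score. Since each group has 1 list, no test was run. Windows 0.5 to 2 times as long as a member's served as a second background.

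The members, the lists, that of pathway genes included, and the rules were chosen with earlier results of these data known. Named genes are the members, genes in their windows or nearest to a peak named, and the 3 genes most like each member. Up to 4 genes a pathway group with the highest peaks of at least 100 are also named. Tal1, as the gene with none, and Rag1 and Rag2, which share peaks, were chosen after their values were seen. A planned comparison of protein ends was not made. Counting was tested on simulated peaks. The software was Python 3.11.15 with pandas 2.3.3, numpy 2.4.6, matplotlib 3.10.9 and scipy 1.17.1.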

Additional observations from a re-analysis of the deposited data

How the results depend on the processing

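No paired analysis was possible because each group has 1 list. With strong peaks alone, 3 peaks remained at Tcf3, 5 at Tcf12 and 1 at Tcf4, no region had peaks at all 3 stages (0), and 38.1% of genes had a peak in any list, against 88.3%. Within the gene spans Tcf3 had 0 peaks, and with 10 kb flanks 4. Either window left 1 region with both factors in DN3 cells, at Tcf12, against 2. With 100 kb flanks Tcf4 had 8 peaks. The share of genes with a peak in any list was 87.5%, 97.1% and 98.2% among genes with windows like those of Tcf3, Tcf12 and Tcf4. With the CD73+ lists exchanged, a peak at all 3 stages occurred in 1 member region for E2A and 0 for HEB, the reverse of the labelled lists. Equal list lengths, leaving out wide peaks and other rules for joining peaks kept these counts within 1.5 times. Unknown read depth limits every statement that a peak was not called.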
